A study of Mus musculus with 2 samples.

Results

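Most Rnf and Trim genes encode RING finger proteins, many of them ubiquitin ligases. The transcripts of both families were compared here between the second polar body (PB2) and the zygote of the mouse. The members were all rows of the deposited table whose gene symbol starts with Rnf or Trim followed by a number, which gave 65 Rnf genes and 34 Trim genes, 99 of the 11262 genes of the table. In GENCODE M21, a gene annotation of the mouse assembly GRCm38, 85 protein-coding genes carry an Rnf symbol and 68 a Trim symbol, and the 99 members are among these 153. The others were not analysed here.

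The study separated PB2 from the rest of late one-cell embryos of C57BL/6 mice (C57BL/6N in the study's methods) with acid Tyrode's solution, which dissolves the zona pellucida, trypsin and pipetting, and made 1 library from pooled PB2s and 1 from pooled zygotes. Both samples are labelled untreated, and by the methods the mothers of all embryos had been superovulated with pregnant mare serum gonadotropin and human chorionic gonadotrophin and then mated. The study's question here was which molecules of PB2 might influence the embryo. The messenger RNA was amplified as full-length cDNA before sequencing. With 1 library for each cell type there is no replicate, no difference below has a test, and every value describes these 2 libraries only.

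A ubiquitin ligase brings a substrate together with a ubiquitin-conjugating enzyme (E2), and the RING domain is the surface that holds the charged E2. Most TRIM proteins carry a RING domain, B-box zinc fingers and a coiled coil. They are divided into classes by what follows at the carboxyl end, most often a PRY-SPRY domain. Whether each member here has a RING domain was not checked. The Rnf symbol is instead given to RING proteins of many unrelated architectures, among them RING-between-RING enzymes, membrane proteins and nuclear ligases of chromatin. In oocytes and early embryos, ubiquitin-dependent degradation takes part in meiotic exit and in the removal of maternal proteins.

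Transcript levels are given in TPM, the unit the authors deposited, a transcript's share of its library after division by its length, so that levels of different genes can be set side by side within a library. TPM gives proportions, so more RNA of one gene and less of the others cannot be told apart, nor can more cells and more RNA per cell. The number of reads is unknown. Where a pair of TPM values is given for a gene, the zygote comes first and PB2 follows. Values were deposited to 1 decimal, and the smallest above 0 is 0.1. The table covered 89.8% of the PB2 library and 92.7% of the zygote library, as judged by its summed TPM. All 12 oocyte markers examined were present in both libraries, from 62.7 TPM (Mos) to 22562 TPM (Dppa3) in the zygote and from 99.5 TPM (Zp2) to 10496 TPM (Oosp1) in PB2. Of 12 markers of cumulus and granulosa cells, 3 were in the table, and Cyp19a1 had 72.2 TPM in the zygote against 70.9 in PB2, Fshr had 2.2 and 3.3 TPM and Cyp11a1 was listed at 0 in the zygote and at 0.8 TPM in PB2, and of 6 sperm and male germ cell markers Prm2 had 19.8 TPM in the zygote against 22 in PB2 and Akap4 had 1.0 and 0.6 TPM. The compared markers summed to 74.4 and 74.2 TPM for cumulus and granulosa cells and to 20.8 and 22.6 TPM for sperm, nearly level between the libraries.

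Rnf transcripts were, as a group, placed towards PB2, and Trim transcripts were spread to both sides. A log2 ratio was taken for each gene as the log2 of its PB2 level over its zygote level, with 1 TPM added to both, which is above 0 where PB2 is higher, and which understates the difference of genes near or under 1 TPM. It was computed for the 10645 genes with at least 1 TPM in either library, 64 of the 65 Rnf genes and 33 of the 34 Trim genes among them. Rnf150 (0.1 TPM in the zygote and 0.7 in PB2) and Trim6 (0.5 TPM in both) stayed under that level. The median log2 ratio was 0.59 for Rnf and 0.12 for Trim, against 0.21 for all genes compared. The quartiles of the Rnf genes were 0.06 and 1.04, and those of the Trim genes -0.32 and 0.82.

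Counted by direction alone, 49 of the 64 Rnf genes (76.6%) and 19 of the 33 Trim genes (57.6%) were higher in PB2, against 59.2% of all genes. A difference of 2-fold or more (a log2 ratio of at least 1, called past 2-fold) towards PB2 was found for 17 Rnf genes (26.6%) and 7 Trim genes (21.2%), where the background was 18.9% of all genes compared. The same difference towards the zygote was found for 2 Rnf genes (3.12%) and 4 Trim genes (12.1%), with a background of 8.09%. The Trim share towards PB2 was thus near the background. The medians of the families differed by 0.47, and this gap was between 0.44 and 0.49 under each alternative scaling, filter, pseudocount and trend removal tried. Centred on the median of all genes, the counts at 2-fold were 12 towards PB2 and 2 towards the zygote for Rnf, and 5 and 5 for Trim, where the background was 13.0% and 12.1%.

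**Figure D1:**
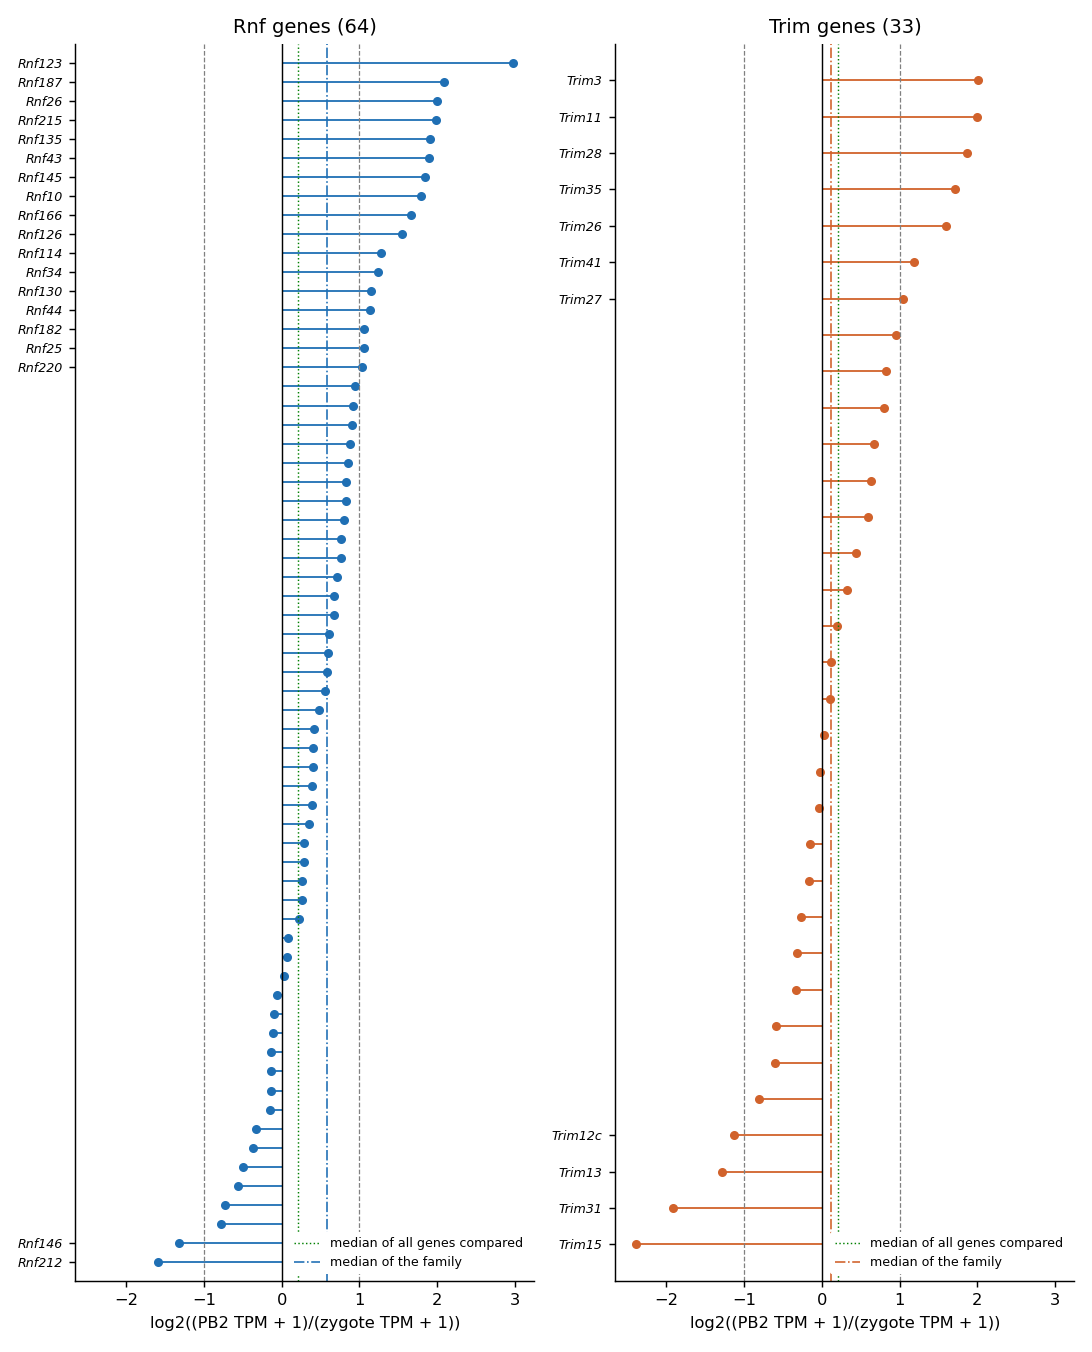
Log2 ratio of each Rnf gene (left, 64 genes) and each Trim gene (right, 33 genes), ordered within its family and named where past 2-fold, with dashed lines at 2-fold, a dotted line at the median of all genes compared and a dash-dot line at the median of the family. The Rnf genes run from -1.58 (Rnf212) to 2.98 (Rnf123) with 49 above 0, and the Trim genes from -2.39 (Trim15) to 2.01 (Trim3) with 19 above 0.

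The families also differed in how their RNA was distributed over the members. The Rnf genes added up to 2987 TPM in the zygote against 4707 in PB2. The Trim genes added up to 1490 TPM in the zygote against 1453 in PB2, nearly the same. Each sum leans on few genes. Rnf114, a small ligase whose human counterpart is a psoriasis susceptibility gene, was the most abundant Rnf transcript in both libraries, with 414.4 TPM in the zygote against 1003.4 in PB2, which made up 13.9% and 21.3% of the Rnf sum. Without it the Rnf genes compared still added up to 2572 TPM in the zygote against 3703 in PB2.

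Trim13, an endoplasmic reticulum-anchored ligase with a role in protein degradation from that compartment, was the most abundant Trim transcript of the zygote, with 599.0 TPM or 40.2% of the Trim sum. In PB2 it had 244.7 TPM, a log2 ratio of -1.29, and came after Trim75, which had 245.5 TPM in the zygote against 434.4 in PB2. Trim60, which like Trim75 is a PRY-SPRY gene and lies next to it on chromosome 8, followed with 201.2 and 205.1 TPM, and Trim59, with 126.6 TPM in the zygote against 83.8 in PB2, was the other Trim transcript above 100 TPM in the zygote. Trim13 alone turned the direction of the family's sum. Without it the Trim genes compared had 890.5 TPM in the zygote against 1207 in PB2.

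After Rnf114 in PB2 came Rnf34 and Rnf185. Rnf34, which binds initiator caspases, had 181.6 TPM in the zygote against 431.1 in PB2 (log2 ratio 1.24). Rnf185, a ligase of the endoplasmic reticulum and mitochondria, had 193.2 and 337.1 TPM. Rnf181 was nearly level, at 180.8 TPM in the zygote against 169.0 in PB2. At least 100 TPM was reached by 13 Rnf genes and 3 Trim genes in PB2, and by 9 Rnf genes and 4 Trim genes in the zygote.

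**Figure D2:**
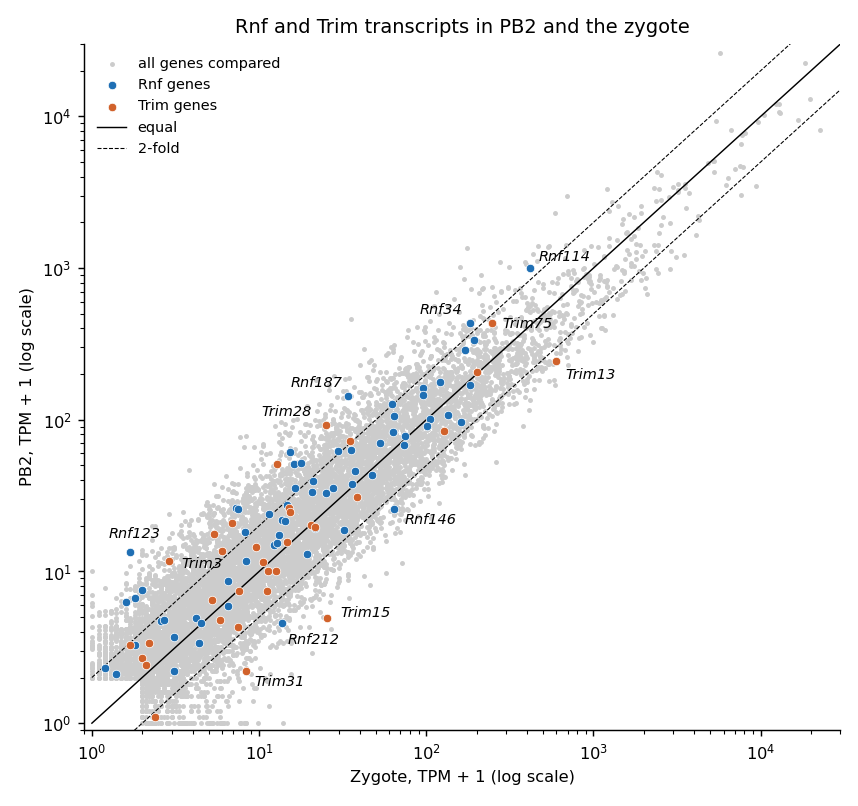
TPM + 1 in the zygote (x axis) and in PB2 (y axis), both on log scales, for the 10645 genes compared (grey), the Rnf genes (blue) and the Trim genes (orange), with a solid line of equal levels and dashed lines at 2-fold. Rnf114 (414.4 and 1003.4 TPM) lies above the upper 2-fold line and Trim13 (599.0 and 244.7 TPM) under the lower one.

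The member with the largest log2 ratio was Rnf123 (ENSMUSG00000041528), the catalytic subunit of the KPC ligase that ubiquitinates the cyclin-dependent kinase inhibitor Cdkn1b. It had 0.7 TPM in the zygote against 12.4 in PB2, a log2 ratio of 2.98, and 10 of the 10645 genes compared had a larger one. The ratio of the deposited values is 17.7, and their rounding allows 16.5 to 19.2, before any counting error. The gene lies at chr9:108051534-108083346 of GRCm38 on the minus strand, and its exons share 937 bases with those of Gmppb and 195 with those of Mst1, both on the other strand. The strand setting of the counting is not given in the sources used here, so it is open to which gene reads of that stretch were assigned. Other parts of the KPC axis differed less. Ubac1, the second KPC subunit, had 40.8 TPM in the zygote against 63.5 in PB2, and Cdkn1b had 4.0 and 8.7 TPM.

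Where the higher library had 10 TPM or more, 7 other Rnf genes stood next to Rnf123. Rnf187, a coactivator of Jun, had 33.0 TPM in the zygote against 142.8 in PB2 (log2 ratio 2.08). Rnf26, an endoplasmic reticulum protein that holds endosomes near the nucleus, had 14.3 and 59.9 TPM (1.99). Rnf145, a sterol-responsive ligase of the same membrane, had 6.3 and 25.2 TPM (1.84). The next was Rnf10, a ligase of small-subunit ribosomal proteins, with 6.5 TPM in the zygote against 24.9 in PB2 (1.79). Each of these was about 4 times higher in PB2. Rnf166 followed with 15.2 and 50.2 TPM (1.66), Rnf126, which acts with Bag6 in cytosolic protein quality control, with 16.8 and 50.9 TPM (1.54), and Rnf114 with a log2 ratio of 1.27. Rnf115, the paralog of Rnf126, was within 2-fold at 26.8 TPM in the zygote against 34.5 in PB2. Closer to the threshold were Rnf44 at 15.3 and 34.7 TPM (1.13), Rnf182 at 10.5 and 23 TPM (1.06) and Rnf25, a ligase of stalled ribosomes, at 28.7 and 60.8 TPM (1.06). The 45 Rnf genes within 2-fold ran from -0.78 (Rnf7) to 0.94 (Rnf128). Rnf128 had 0.2 and 1.3 TPM, where the 1 TPM added to both levels understates the difference.

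In the other direction, 2 Rnf genes passed 2-fold. Rnf212, which promotes crossovers in meiosis, had 12.8 TPM in the zygote against 3.6 in PB2 (log2 ratio -1.58). Rnf146, which binds poly(ADP-ribose) and marks axin for degradation, had 63.1 and 24.7 TPM (-1.32). The exons of Rnf146 share 3129 bases with those of Echdc1 on the other strand, a gene that had 9.5 TPM in the zygote against 2.8 in PB2. Further down were Rnf7, the RING subunit of a class of cullin ligases, at 31.2 and 17.8 TPM (-0.78), Rnf17, a tudor domain protein of the germ line, at 159.6 and 95.6 TPM (-0.73), and Rnf32 at 18.3 and 12.1 TPM (-0.56). Rnf4, which recognizes SUMO chains, had 133.3 and 106.0 TPM (-0.33), and Rnf219 (99.4 and 90.0 TPM) and Rnf19a (20.6 and 18.4 TPM) were close to level.

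Where the higher library had 10 TPM or more, 7 Trim genes were past 2-fold towards PB2. Trim3, an NHL-domain protein, had 1.9 TPM in the zygote against 10.7 in PB2 (log2 ratio 2.01). Trim11, a PRY-SPRY protein, had 11.8 and 50 TPM (1.99). Trim28, the corepressor that KRAB zinc finger proteins recruit to imprinted regions and retrotransposons, had 24.3 TPM in the zygote against 91.4 in PB2 (1.87), the highest PB2 level of the 7. The remaining 4 were Trim35 (4.4 and 16.7 TPM), Trim26 (5.9 and 19.9 TPM), Trim41 (5.0 and 12.6 TPM) and Trim27 (34.1 and 71.3 TPM), with log2 ratios between 1.04 and 1.71. All but Trim3 and Trim28 are PRY-SPRY proteins. The 22 Trim genes within 2-fold ran from -0.80 (Trim38, at 6.5 and 3.3 TPM) to 0.96 (Trim69, at 0.7 and 2.3 TPM).

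The 4 Trim genes past 2-fold towards the zygote include the member with the most negative log2 ratio. Trim15 (ENSMUSG00000050747) had 24.6 TPM in the zygote against 3.9 in PB2, a log2 ratio of -2.39 and a 6.31-fold difference in the deposited values, and 32 of the 10645 genes had a smaller log2 ratio. Trim31 had 7.3 TPM in the zygote against 1.2 in PB2 (-1.92), and Trim13 was given above. Trim12c had 1.4 TPM in the zygote against 0.1 in PB2 (-1.13), where rounding alone allows its PB2/zygote ratio to lie between 0.034 and 0.11. It belongs to a cluster of closely related genes on chromosome 7 that also holds Trim30a (37.7 and 29.9 TPM) and Trim30d (6.6 and 6.4 TPM). Reads of such copies may be split or lost in counting, so their values are uncertain, as are those of Trim43c (4.8 and 3.8 TPM).

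Trim15 and Trim31 lie in a group of 5 Trim genes of the table on chromosome 17, at chr17:36258873-36910214 of GRCm38, and their log2 ratios ran to both sides. In the order of the chromosome, the log2 ratios were 0.32 for Trim39, 1.60 for Trim26, -2.39 for Trim15, 0.10 for Trim40 and -1.92 for Trim31. Trim26 and Trim15 end 1292 bases apart on opposite strands, and their exons do not overlap in the annotation. Trim40 had 13.6 TPM in the zygote against 14.7 in PB2.

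By architecture and role, the lists of Rnf genes had median log2 ratios above that of all genes. The share of a list past 2-fold towards PB2 ran from 0% to 50%, where the background was 18.9%. The lists are small, with 4 to 11 genes compared. With the GC trend removed, the median of the RING-between-RING list was 0.012 against 0.028 for all genes, and those of the other Rnf lists lay between 0.28 and 0.78. Of the RING-between-RING enzymes, which pass ubiquitin through a cysteine of their own, 0 of 5 were past 2-fold and the median log2 ratio was 0.77. Rnf14, which acts on stalled ribosomes, had 94.3 TPM in the zygote against 161.1 in PB2, Rnf19b had 19.9 and 38.4 TPM, and Rnf216 had 34.9 and 36.9 TPM. Rnf31, the catalytic subunit of the linear ubiquitin complex, was scarce at 0.8 and 2.3 TPM, and so were its partners Rbck1 (0.9 and 3.6 TPM) and Sharpin (1.0 and 0.4 TPM). Of the protease-associated transmembrane ligases, 2 of 6 were past 2-fold towards PB2, Rnf43 (0.8 and 5.7 TPM) and Rnf130 (7.2 and 17.2 TPM). Among these 6 the median was 0.92, with Rnf167 at 13.6 and 26.4 TPM, Rnf13 at 11.8 and 14.3 TPM, and Rnf128 (0.2 and 1.3 TPM) and Rnf149 (0.4 and 1.1 TPM) under 1 TPM in the zygote. Of 11 other membrane-anchored members, 2 were past 2-fold, Rnf26 and Rnf145, with a median of 0.40.

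The Rnf ligases of chromatin and DNA repair stayed within 2-fold but for Rnf212. Their median log2 ratio was 0.45 over 10 genes. Rnf2, the catalytic subunit of Polycomb repressive complex 1, had 104.9 TPM in the zygote against 100.9 in PB2. Of its partners, Bmi1 was level at 289.8 and 295.1 TPM and Pcgf6 had 428.2 and 590.8 TPM, while Pcgf1 had 2418 TPM in the zygote against 930.8 in PB2, a log2 ratio of -1.38. Rnf20 and Rnf40, which act together on a core histone, had 34.5 and 61.9 TPM and 12.8 and 21 TPM, log2 ratios of 0.83 and 0.67. Rnf168 and Rnf8, which ubiquitinate chromatin around double-strand breaks, were far apart in level, at 119.7 and 176.4 TPM for Rnf168 and 7.4 and 10.7 TPM for Rnf8, with log2 ratios of 0.56 and 0.48. Of 6 partners in that response, 1 was past 2-fold towards PB2, Trp53bp1 with 8.2 TPM in the zygote against 24.1 in PB2, and the median was 0.13, or -0.13 with the GC trend removed.

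Rnf genes of Wnt and transforming growth factor β signaling went to both sides, with 2 of 6 past 2-fold towards PB2, 1 towards the zygote, and a median of 0.78. Rnf43, which removes Frizzled receptors from the cell surface, and Rnf220 (61.0 TPM in the zygote against 125.4 in PB2, log2 ratio 1.03) were higher in PB2, and Rnf146 was higher in the zygote. Rnf111, a ligase of inhibitors of Smad signaling, had 63.3 and 104.5 TPM (0.71). Rnf165, its relative, and Rnf11 were scarce, at 1.6 and 3.7 TPM and at 2.1 and 1.2 TPM. In the small family that Rnf114 shares with Rnf125, Rnf138 and Rnf166, Rnf114 and Rnf166 were past 2-fold, and Rnf125 (46.1 and 42.0 TPM) and Rnf138 (24.1 and 32 TPM) were not.

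Among the Trim classes, the 18 PRY-SPRY genes compared had 5 members past 2-fold towards PB2, 2 towards the zygote and a median log2 ratio of 0.26, which was -0.020 with the GC trend removed. In the class of bromodomain corepressors, Trim28 was past 2-fold, and its relatives Trim24 (20.7 TPM in the zygote against 18.5 in PB2) and Trim33 (8.6 and 13.5 TPM) were not. Of 8 partners of Trim28, among them the histone methyltransferase Setdb1 (43.9 and 53.6 TPM), the imprint-binding factor Zfp57 (1161 and 825.0 TPM) and Dnmt1 (356.1 and 358.9 TPM), 0 were past 2-fold towards PB2 and 1, Morc3 (35 and 15.1 TPM), was higher in the zygote. Their median was -0.13. In the NHL class, Trim3 was past 2-fold, Trim32 had 14.4 and 23.5 TPM, and Trim71, the let-7 target also called Lin41, had 10.3 and 9.1 TPM. Among the Trim groups listed, the transmembrane and single-member classes stood furthest towards the zygote, with a median of -0.59. They were Trim13, Trim59, Trim23 (10.2 and 6.4 TPM), which carries an ARF domain, and Trim37 (19.5 and 19.1 TPM), a ligase of centrioles and peroxisomes. Trim31 (log2 ratio -1.92), Trim40 (0.10), Trim80 (0.43) and Trim44 (0.80) were in none of the groups. Trim36, the single class I gene of the table that carries a Trim symbol, had 11.7 and 9.1 TPM. With the GC trend removed, the transmembrane and single-member classes had a median of -0.16 and Trim36 stood at -0.18. The transmembrane and single-member classes were then no longer furthest towards the zygote among the groups listed.

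**Figure D3:**
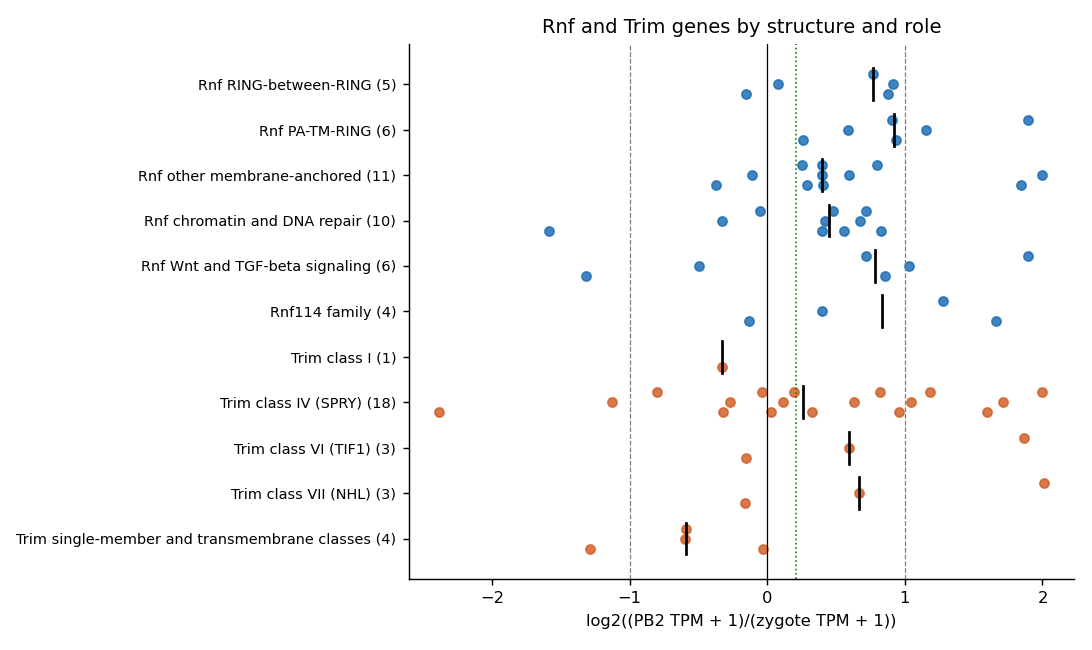
Log2 ratio of each gene (points) in lists of Rnf genes (blue) and Trim genes (orange), with the number of genes compared in parentheses, a black bar at the list's median, dashed lines at 2-fold and a dotted line at the median of all genes. Medians run from 0.40 to 0.92 in the Rnf lists and from -0.59 to 0.67 in the Trim lists, and a gene may stand in more than 1 list.

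The Rnf values were set beside RING ligases that carry other symbols. Of 64 such genes compared, 16 (25%) were past 2-fold towards PB2 and 2 (3.12%) towards the zygote. The background was 18.9% and 8.09%. Their median log2 ratio was 0.33, against 0.21 for all genes. With the GC trend removed it was 0.32, against 0.42 for Rnf and 0.03 for all genes. Dtx2, of the Notch pathway, had 20.8 TPM in the zygote against 180.7 in PB2. Siah2, a ligase of the hypoxia response, had 395.5 and 1057 TPM. Of 3 TRIM proteins under other symbols, Pml, which builds nuclear bodies, was past 2-fold at 0.5 and 4.4 TPM. Of 18 E2 enzymes that work with RING ligases, 3 (16.7%) were past 2-fold towards PB2 and 2 (11.1%) towards the zygote. The median was 0.14, or 0.29 with the GC trend removed. Ube2d2a had 221.5 and 322.5 TPM and Ube2d3 had 229.5 and 261.6 TPM, while Ube2n, which builds non-degradative chains, had 143.0 and 87.9 TPM, and its cofactor Ube2v2 had 12.9 and 5.6 TPM.

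The log2 ratio of the members followed the GC content of their transcripts, as it did over the whole table. With each gene represented by its longest coding transcript of GENCODE M21, Spearman's rho with GC content was 0.59 over the 64 Rnf genes, 0.61 over the 33 Trim genes and 0.44 over 10606 genes of the table, all from the same pair of libraries. Genes are not independent replicates, so rho is a description. Median GC content was 56.2% in the 24 members past 2-fold towards PB2, 47% in the 67 within 2-fold and 45.9% in the 6 past 2-fold towards the zygote. In the coding part alone rho was 0.58 for Rnf and 0.67 for Trim. Transcript length bore little relation to the log2 ratio, with rho of -0.05 for Rnf and 0.15 for Trim, against 0.17 over all genes. With that trend removed, the medians were 0.27 for Rnf, -0.16 for Trim and -0.0044 for all genes.

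The families did not differ in GC content by much, with medians of 49.3% for Rnf and 48.7% for Trim against 49.1% for all genes compared. With the trend on GC content removed, the median log2 ratio was 0.42 for Rnf and -0.02 for Trim, against 0.03 for all genes. Past 2-fold towards PB2 were then 10 Rnf genes and 4 Trim genes, where the background was 9.53%, and higher in the zygote 2 and 3, where it was 10.5%. Rnf123 stood at 2.18 after the removal, Rnf145 at 1.95 and Trim15 at -2.83, while Rnf114 came to 0.58, Rnf220 to 0.31 and Trim28 to 0.96. With the table divided into 10 equal classes by GC content, 17 of the 28 members in the 3 richest classes (60.7%) were past 2-fold towards PB2, where 39% of all genes were, and 2 of the 28 in the 3 poorest (7.14%), where 4.37% of all genes were. The part that GC content plays in these differences was not tested.

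**Figure D4:**
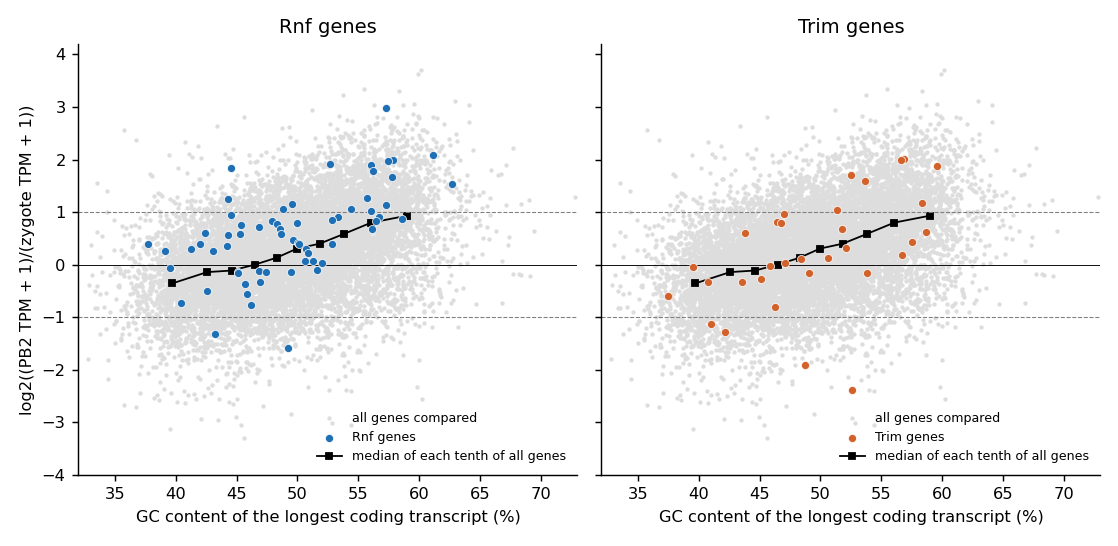
Log2 ratio (y axis) against the GC content of the longest coding transcript in percent (x axis) for Rnf genes (left, blue) and Trim genes (right, orange) over all genes compared (grey), with black squares at the median of each of 10 equal classes of all genes by GC content. Members rise with GC content, with rho of 0.59 for Rnf and 0.61 for Trim.

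Oocyte messages that are stored with short poly(A) tails often carry the cytoplasmic polyadenylation element TTTTAT in their 3′ UTR. A match on the transcript strand was found in 14 of the 24 members higher in PB2 (58.3%), 45 of the 67 within 2-fold (67.2%) and 2 of the 6 higher in the zygote (33.3%). The median 3′ UTR lengths of these groups were 961, 1430 and 693.5 bases in that order, and the shares were not adjusted for length. Rnf212, one of the 6, has an annotated 3′ UTR of 3 bases, too short for a match. Over all genes compared with an annotated 3′ UTR, 57.8% held a match. By position, 8 of the 14 members compared on chromosome 11 were past 2-fold towards PB2 and 0 towards the zygote, with a background of 25.1% towards PB2 among the 788 genes of that chromosome. They were Rnf187, Rnf215, Rnf135, Rnf43, Rnf145, Rnf130, Trim11 and Trim41, and the chromosome was singled out after the values were seen. Rnf215 had 0.6 TPM in the zygote against 5.3 in PB2, and Rnf135, which activates RIG-I, had 1.0 and 6.5 TPM.

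Promoter windows were read from a RefSeq table of GRCm38.p6, from 250 bases before to 50 bases after the gene start, and 74 of the 99 members had an entry. The windows of the 4 members at the ends of the families, leaving aside genes with no entry, are printed 5′ to 3′ on the gene's strand, to show the start of the gene at either end of each family's order. For Rnf123 and Trim28 the RefSeq start lies inside the longer GENCODE gene. Capitals mark each match of the GC box, GGGCGG or CCGCCC.
Rnf123, GRCm38.p6 chr9:108079252-108079551, minus strand: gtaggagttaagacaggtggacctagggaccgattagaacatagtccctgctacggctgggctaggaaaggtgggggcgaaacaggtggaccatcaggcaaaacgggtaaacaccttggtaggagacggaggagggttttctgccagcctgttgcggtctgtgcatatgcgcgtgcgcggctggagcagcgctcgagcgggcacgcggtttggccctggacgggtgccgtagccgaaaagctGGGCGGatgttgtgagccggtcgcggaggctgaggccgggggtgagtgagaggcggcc
Rnf212, GRCm38.p6 chr5:108774978-108775277, minus strand: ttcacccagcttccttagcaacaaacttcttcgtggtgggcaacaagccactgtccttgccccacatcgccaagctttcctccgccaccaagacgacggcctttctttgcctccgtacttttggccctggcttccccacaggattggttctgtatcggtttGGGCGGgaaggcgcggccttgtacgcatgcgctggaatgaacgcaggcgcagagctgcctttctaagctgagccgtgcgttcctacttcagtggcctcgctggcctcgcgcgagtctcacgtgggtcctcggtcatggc
Trim28, GRCm38.p6 chr7:13023902-13024201, plus strand: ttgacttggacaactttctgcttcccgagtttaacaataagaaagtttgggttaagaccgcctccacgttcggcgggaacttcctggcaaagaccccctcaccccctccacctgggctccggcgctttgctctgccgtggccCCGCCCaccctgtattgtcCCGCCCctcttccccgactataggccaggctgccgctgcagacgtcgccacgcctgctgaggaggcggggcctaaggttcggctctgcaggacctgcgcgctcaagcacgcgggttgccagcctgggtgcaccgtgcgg
Trim15, GRCm38.p6 chr17:36867161-36867460, minus strand: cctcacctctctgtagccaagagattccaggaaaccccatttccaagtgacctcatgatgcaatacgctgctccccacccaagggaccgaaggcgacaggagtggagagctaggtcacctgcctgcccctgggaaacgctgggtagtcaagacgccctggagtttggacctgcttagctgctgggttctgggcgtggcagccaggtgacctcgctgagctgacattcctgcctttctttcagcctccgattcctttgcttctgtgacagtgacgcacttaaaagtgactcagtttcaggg

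The window of Rnf123 has a GC content of 63.0% with 24 CpG and 1 GC box, and that of Trim28 has 64.0%, 23 CpG and 2 GC boxes. Rnf212, higher in the zygote, has 59.7%, 22 CpG and 1 GC box, and Trim15 has 56.3%, 9 CpG and no match. A GC box stood in 74.5% of the 47 Rnf windows and 46.2% of the 26 Trim windows of genes compared, against 63.3% of the 8418 windows of all genes compared and 35.7% of all 32851 windows of the RefSeq table. Of the members with a window, 15 of the 20 past 2-fold towards PB2 held a match, 31 of the 47 within 2-fold and 1 of the 6 higher in the zygote. The GC content of the window had rho of 0.05 with the log2 ratio over the Rnf genes and 0.20 over the Trim genes, lower than that of the transcript.

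Low levels limit several of the members named. In the zygote 6 Rnf genes and 1 Trim gene compared were under 1 TPM, and in PB2 1 Trim gene, Trim12c. Where the higher library had 10 TPM or more, 14 of 49 Rnf genes (28.6%) and 7 of 23 Trim genes (30.4%) were past 2-fold towards PB2, with a background of 20.4%. Higher in the zygote were 2 Rnf genes (4.08%) and 2 Trim genes (8.7%), with a background of 8.42%. At these levels the Trim share towards PB2 was thus not below that of Rnf. The medians in this range were 0.59 and 0.12. Exons shared with another protein-coding gene were found for 21 of the 99 members and for 8 of the 30 at least 2-fold apart, among them Rnf114, Rnf34 and Rnf26. In GENCODE M21 the exons of Rnf26 share 2059 bases with those of Gm49380, on the same strand. Those of Rnf8 share 1542 bases with Gm28043, also on the same strand. Reads of such stretches may be lost in counting, so the levels of Rnf26 and Rnf8 are uncertain.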

How the data were processed

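RNA-seq of PB2 and the zygote was analysed, with 1 library of each, made from amplified full-length cDNA. According to the study's methods and the submitters' processing notes, the authors called bases with CASAVA, aligned reads with HISAT2 2.0.4, counted them per gene with HTSeq 0.6.1p1 on an Ensembl annotation and used DESeq2 1.18.1. The notes name both OryCun2.0, a rabbit assembly, and GRCm38, and the identifiers of the table are mouse. The authors deposited TPM values to 1 decimal, and how they were computed is not stated. Depth is unknown, so no counting interval is given.

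Both value columns were matched to samples by name, with 0 columns left over. The pseudocount was 1, and genes with at least 1 TPM in either library were compared. No test was run, since 1 library stands for each group. GC and length trends were fitted by loess (span 0.3) over all genes with a GENCODE M21 transcript. Alternatives were pseudocounts of 0.1 and 0.01, 1.5-fold and 4-fold thresholds, other filters on TPM, scaling of the zygote values, a total rescaled after leaving out mitochondrial messages and the 50 highest genes, centring, and trend removal. The members and lists were chosen with earlier results of these data known. Genes were named where they were, in each family, among the 8 largest or 8 smallest log2 ratios where the higher library had 10 TPM or more, among the 6 most abundant, or in a role list and past 2-fold or in a list of up to 8 genes. A gene that this rule names is not reported here. Any other gene named was chosen with its values in view. The functions for the log2 ratio and the trend removal were tested on simulated libraries that held no genes at low levels. Python 3.11.15, numpy 2.4.6, pandas 2.3.3, statsmodels 0.14.6 and matplotlib 3.10.9 were used.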

Additional observations from a re-analysis of the deposited data

How the results depend on the processing

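No paired analysis was possible because PB2 and the zygote were sequenced once each. At 1.5-fold, 33 Rnf and 13 Trim genes were higher in PB2 and 4 and 7 in the zygote, against 3642 and 1924 of all genes. At 4-fold these counts were 2, 1, 0 and 1, against 264 and 74, which follows from the threshold. With the GC trend removed, 10 Rnf and 4 Trim genes and 1011 of all genes were past 2-fold towards PB2. With the length trend removed the Rnf median was 0.27, that of all genes -0.0044, and 1270 of all genes were higher in PB2. The Trim median fell below 0 with centring (-0.092), the GC trend removed (-0.021) and the length trend removed (-0.16), and centring shifts every log2 ratio by 0.21. At 10 TPM or more in either library, a filter chosen after the data were seen, 2 Trim genes were higher in the zygote, and 1278 and 527 of all genes passed 2-fold, since fewer genes enter. With pseudocounts of 0.1 and 0.01 the log2 ratio of Rnf123 was 3.97 and 4.13, and that of Trim12c -2.91 and -3.68. With either of these pseudocounts 22 Rnf and 8 Trim genes were past 2-fold towards PB2, against 2617 (0.1) and 2632 (0.01) of all genes. Of all counts and medians under the alternatives, 79 stayed within 1.5 times or within 0.25 of the main value, 20 moved further and 3 changed sign. None of the 30 Rnf and Trim genes past 2-fold had a log2 ratio of the other sign under the other pseudocounts, scalings, centring and trend removals. Restriction to members with a RING pattern in their protein was not run, as no protein sequences were used here. Unknown depth limits the genes under a few TPM.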
